A study of Mus musculus with 24 samples.

Results

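Fgf21 and the receptor genes that its product can act through were followed in mouse liver across fasting and loss of Ppara. The 6 genes are Fgf21, its co-receptor Klb, and the FGF receptors Fgfr1, Fgfr2, Fgfr3 and Fgfr4. They were picked by gene symbol, with earlier results of these data known, and are 6 of 27248 genes with a symbol on the array. Their 15 probes are all described, 12 of which were bright enough to test, and every one of the 6 genes was among the 17206 genes tested.

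RNA from whole liver was labelled with Cy3 and read on 1-colour Agilent arrays. The mice, C57Bl/6J males 8 weeks old, carried Ppara in the liver (liver wild-type, LWT) or a liver knockout of it (LKO), and either ate ad libitum or were fasted for 24 h. All ate Safe 04 chow, and fed and fasted mice share the clock time of their death (ZT16, 16 h into the cycle counted from lights on). The labels list 5 fed LWT, 5 fasted LWT, 6 fed LKO and 6 fasted LKO mice on 24 arrays, with 1 fed and 1 fasted LWT mouse hybridised on 2 arrays each, while the series text speaks of 24 mice. The labels used here do not give the promoter that drives the deletion or the part of Ppara that is removed.

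FGF21 is a hormone made largely by the liver during fasting, on high-carbohydrate diets and under amino acid or mitochondrial stress. It signals through an FGF receptor, mainly FGFR1 in its c isoform, held together with beta-klotho, the product of Klb, which gives target tissues their sensitivity. In hepatocytes the chief FGF receptor is FGFR4, which with beta-klotho receives the gut hormone FGF15 and lowers bile acid synthesis. PPARalpha, the nuclear receptor that Ppara encodes, and ATF4, the transcription factor of the integrated stress response, are both known activators of Fgf21.

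The RefSeq promoter of Fgf21 is shown because it holds sequence matches for known regulators of the gene. It covers 250 bases upstream of the start site at chr7:45615491-45615740 (GRCm38.p6, minus strand), written from 5′ to 3′ on the strand of the gene. Capitals mark the matches of the motifs searched.

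Fgf21 promoter: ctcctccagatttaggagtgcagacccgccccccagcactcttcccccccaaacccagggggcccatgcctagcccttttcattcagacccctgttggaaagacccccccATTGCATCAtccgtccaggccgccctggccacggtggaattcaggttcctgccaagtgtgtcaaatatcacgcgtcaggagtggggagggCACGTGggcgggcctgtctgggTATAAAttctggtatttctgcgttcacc

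The composite element of ATF4 and C/EBP factors, searched as TGATGNAAN on both strands, was matched on the reverse strand by ATTGCATCA from -140 to -132 relative to the start site. That motif was in 3.44% of 32851 promoters of the same length. The E-box CACGTG, which ChREBP and clock factors can bind as part of longer elements, lay from -50 to -45 and was in 6.02% of promoters, and TATAAA lay from -28 to -23 and was in 12.4%. The direct repeat of AGGTCA with 1 base between the copies, the form PPARalpha binds, the single site AGGTCA and the cAMP response element TGACGTCA had no match in this window, against 0.0335%, 14.0% and 1.55% of all promoters. In the 5 listed promoter windows of Klb, Fgfr2, Fgfr3 and Fgfr4, searched in the same way, none of the 6 motifs was found. A match is a description of letters, not evidence of binding, and a lack of match is not evidence that a site is absent. The direct repeat was so rare, at 0.0335% of promoters, that its miss here says little about PPARalpha. Sequence outside these windows was not searched.

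Levels below are log2 signals of 1 probe relative to the 75th percentile of its array, so 0 stands for a probe at that percentile, and a difference of 1 is a doubling. Each change is a difference of group means on that scale, given with its standard error (SE) from limma fitted to all 22 mice. A gene was called at a Benjamini-Hochberg adjusted p below 0.05 over the 17206 genes. Probes differ in how well they hybridise, so the levels of different genes are not set against each other.

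The arrays' 75th percentile ran from 451 to 621.2 intensity units, and the dimmest signal well above background lay between -5.42 and -4.32 on the log2 scale. Ppara itself, at its brighter probe, stood at 4.99 to 5.48 in fed LWT, 3.91 to 4.94 in fed LKO, 5.68 to 6.03 in fasted LWT and 4.82 to 5.14 in fasted LKO, without overlap between genotypes in either state. Its other probe read 3.62 to 4.17, 2.48 to 3.31, 4.35 to 4.78 and 3.37 to 3.80 in the same order, also without overlap. Ppara signal was thus lower but not lost in LKO, where both probes were well above background in every mouse. All 11 hepatocyte markers were well above background. Between genotypes none of them was called in fed mice and 1 in fasted mice, where 3.96% and 37.9% of all genes were called. 1 library, fed LKO replicate 3, lay far out on principal component 3 (57.2), where the remaining fed LKO mice had scores of -17.1 to -4.6. The 24 arrays came from 3 slides of 8, each with 2 arrays of every group, so slide and group can be separated. In bulk RNA, fewer cells of a type and less RNA per cell cannot be told apart.

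Fgf21, the ligand, rose steeply with fasting in both genotypes and was lower in LKO than in LWT mice in both states. Its single probe, A_52_P235347, lies on chromosome 7 (mm9, 52869305 to 52869364, minus strand) and was well above background in 17 of 22 mice. In fed LWT mice its level was -3.46, -4.03, -3.98, -3.69 and -0.90, and in fasted LWT mice it was 2.85, 2.55, 2.18, 1.94 and 2.05. Fed LWT replicate 5 was far above the other 4 fed mice, and every fasted mouse was above every fed one.

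In LKO mice the level ran from -7.51 through a median of -6.77 to -4.66 when fed, and from -1.17 through -0.41 to 0.26 when fasted. The highest fed value belonged to replicate 3, the only 1 of 6 fed LKO mice with a signal well above background, whereas all 6 fasted LKO mice passed. Fasted LKO mice overlapped neither fed LKO nor fasted LWT mice. In intensity units before scaling, the arrays of the fed LKO mice read 2.68 to 22.1 and those of fasted LKO mice 238 to 648, while fed LWT arrays read 29.4 to 278 and fasted LWT arrays 2110 to 4780.

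**Figure D1:**
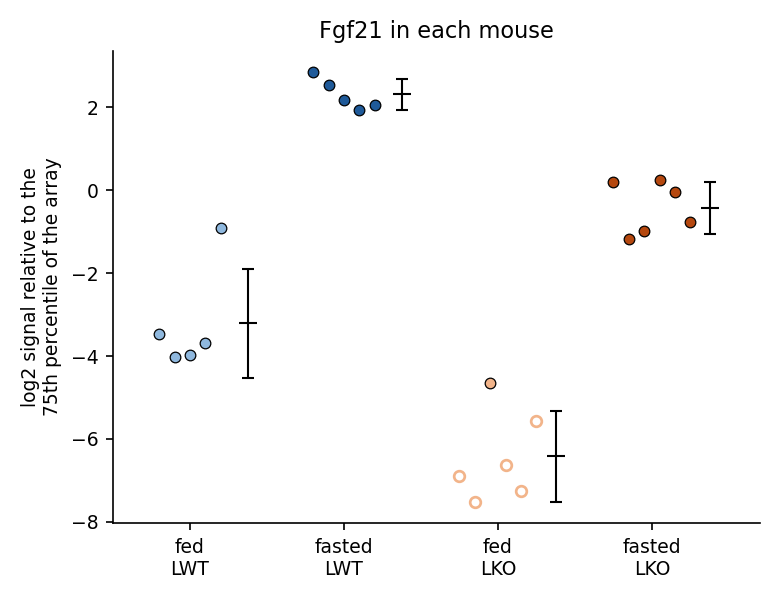
Level of Fgf21 in each of the 22 mice by group, as log2 signal relative to the 75th percentile of the array. Filled points are well above background, open points are not, and the bar beside each group gives its mean and SD; fed LWT replicate 5 sits at -0.90, above the other fed mice, and only 1 of 6 fed LKO mice is filled.

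Fasting raised Fgf21 46.1-fold in LWT mice (log2 5.53, SE 0.56, adjusted p = 1.38e-07 in limma), rank 5 by size of change among all genes tested. In LKO mice the fitted rise was 6.00 on the log2 scale (SE 0.51, adjusted p = 8.68e-09), but 5 of 6 fed LKO mice were not well above background, so its size is uncertain and no fold is given. Within single slides the rise was 4.74 to 6.52 in LWT and 4.91 to 7.01 in LKO. When signals below each array's dimmest well-measured signal were raised to it, an alternative chosen after seeing the data, the rise was 5.53 in LWT and 4.41 in LKO. In the authors' deposited table it was 4.80 and 3.58, and under normexp background correction 4.36 and 2.72. All of these values passed the test.

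Fgf21 was 6.65-fold lower in LKO than in LWT mice when fasted (log2 -2.73, SE 0.53, adjusted p = 0.000394). The fasted difference lies between groups in which all 11 mice were well above background, and it was -3.27 to -2.37 within slides. In fed mice the fitted difference was -3.21 (SE 0.53, adjusted p = 0.000791, -4.17 to -2.21 within slides), against a group of which 1 of 6 mice was well above background, so no fold is given. It was -1.62 with dim signals raised to the floor (adjusted p = 0.0342) and -1.43 in the authors' deposited table (adjusted p = 0.0164), and it lost its call under normexp, at -0.92 (adjusted p = 0.0754). Fed LKO mice were thus the dimmest group, and fasted LKO mice, although lower than fasted LWT mice, stood above every fed mouse of either genotype except fed LWT replicate 5.

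The response to fasting in LKO minus that in LWT was 0.47 for Fgf21 (SE 0.75, 95% interval -1.09 to 2.04, adjusted p = 0.726). The sign of that difference turned with the handling of dim signals: it was -1.63 under normexp (adjusted p = 0.00655), -1.21 in the authors' deposited table (adjusted p = 0.0862) and -1.12 with dim signals raised to the floor (adjusted p = 0.215). Without fed LWT replicate 5 it was -0.10 (adjusted p = 0.935), with a rise of 6.10 in LWT and a fed genotype difference of -2.63. Without fed LKO replicate 3 it was 0.83 (adjusted p = 0.431), with a rise of 6.35 in LKO. These data therefore give a rise in both genotypes, while whether the rise is larger or smaller without Ppara depends on the processing.

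**Figure D2:**
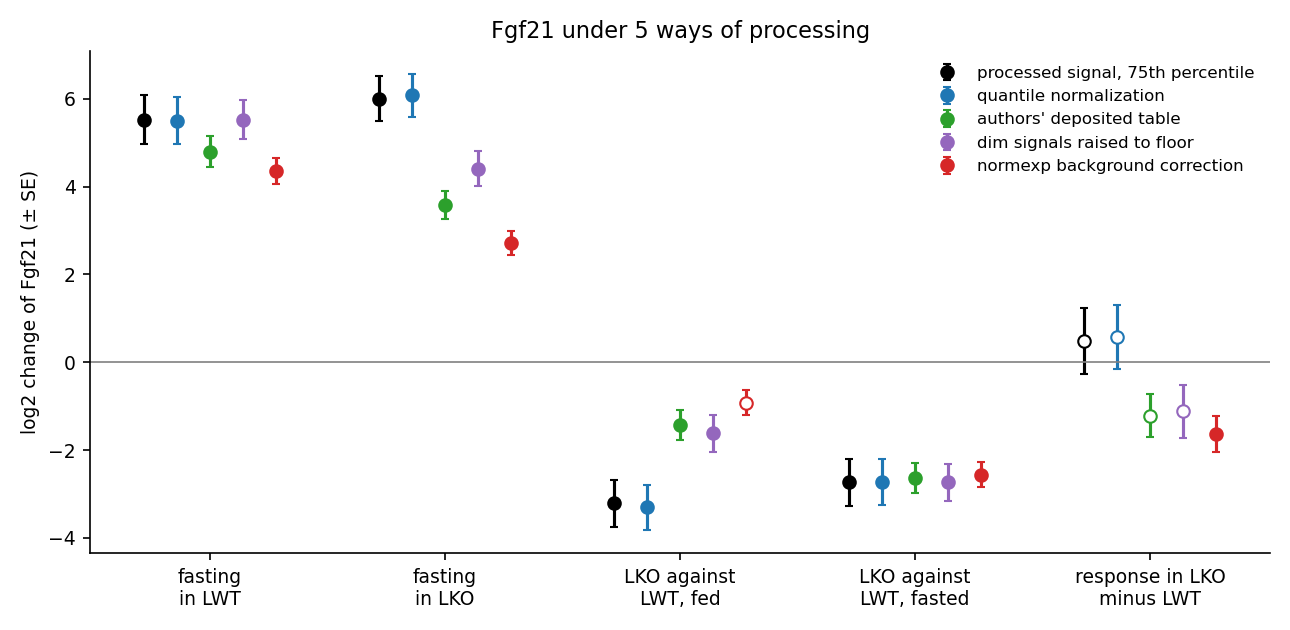
Log2 change of Fgf21 with its SE in the 4 comparisons and in the difference of the fasting responses, under 5 ways of processing the same arrays. Filled points have an adjusted p below 0.05; the fasted genotype difference keeps a value near -2.73 throughout, and the difference of the responses lies on both sides of 0.

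Klb, the co-receptor that FGF21 and FGF15 both need, was raised by fasting in LWT mice and was lower in LKO than in LWT mice when fasted. Its brighter probe, A_51_P464394 (mm9 chromosome 5, 65774926 to 65774985, plus strand), read 0.84, 0.42, 0.94, 0.46 and 1.00 in fed LWT mice and 1.54, 1.13, 1.25, 1.17 and 1.34 in fasted LWT mice. It ran from -0.07 through 0.38 to 0.77 in fed LKO mice and from 0.17 through 0.68 to 0.75 in fasted LKO mice. Every fasted LWT mouse was above every mouse of the other 3 groups, and the fed and fasted LKO mice overlapped.

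The rise of Klb in LWT was 1.47-fold (log2 0.55, SE 0.15, adjusted p = 0.00523, 0.22 to 0.79 within slides). In LKO it was 0.23 (95% interval -0.06 to 0.52, adjusted p = 0.174), and the difference of the 2 responses did not pass (-0.32, 95% interval -0.75 to 0.10, adjusted p = 0.305). Fasted LKO mice had 1.64-fold less than fasted LWT mice (log2 -0.71, SE 0.14, adjusted p = 0.000595). In fed mice the difference was -0.39 (adjusted p = 0.162). The other probe, A_55_P2745433, was well above background in 12 of 22 mice and in none of the fed LKO mice, and was called in no comparison, with changes of the same signs.

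Fgfr1, the receptor that carries most FGF21 signalling in fat and brain, was higher in LKO than in LWT mice when fasted. Its brightest probe, A_55_P2057777 (mm9 chromosome 8, 26685072 to 26685131, plus strand), read 0.98, 1.02, 0.78, 0.93 and 0.68 in fed LWT and 0.74, 1.00, 0.36, 0.60 and 0.92 in fasted LWT mice. It ran from 0.67 through 1.11 to 1.38 in fed LKO and from 0.77 through 1.57 to 1.87 in fasted LKO mice. Of the fasted LKO mice, 5 of 6 were above all fasted LWT mice, and replicate 6 lay among them.

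Fgfr1 was 1.67-fold higher in fasted LKO than in fasted LWT mice (log2 0.74, SE 0.17, adjusted p = 0.00158, 0.50 to 0.89 within slides). Averaging its 2 tested probes gave 0.56 and ended that call (adjusted p = 0.0525). The fed genotypes differed by 0.18 (adjusted p = 0.678). Fasting changed it by -0.16 in LWT (adjusted p = 0.505) and by 0.41 in LKO (SE 0.16, adjusted p = 0.0403), the latter a call that ended in 11 of 32 alternatives. Among these were leaving out fed LKO replicate 1, 4 or 5 (0.33, 0.38 and 0.42) and fasted LKO replicate 1, 2, 3 or 5 (0.38, 0.34, 0.33 and 0.39). The difference of the responses was 0.56 (adjusted p = 0.107), and without fasted LKO replicate 6 it was 0.70 (adjusted p = 0.0178).

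The other 3 Fgfr1 probes were dim. A_65_P11598 was well above background in 12 mice and was called in no comparison, while A_55_P2506940 and A_52_P136162 reached that mark in 4 and 2 mice and were not tested. All 6 of those readings came from LKO mice, 5 of them fasted.

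Fgfr2, whose b isoform is typical of epithelia, was called with fasting in neither genotype at its brighter probe. Its brighter probe, A_55_P2094881 (mm9 chromosome 7, 137307473 to 137307532, minus strand), read -1.78, -1.63, -1.29, -1.59 and -1.39 in fed LWT and -1.86, -1.72, -1.75, -1.55 and -1.76 in fasted LWT mice. It ran from -1.67 through -1.33 to -1.21 in fed LKO and from -1.74 through -1.38 to -0.79 in fasted LKO mice. All 4 groups overlapped.

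Only the fasted genotypes differed by the test, with Fgfr2 1.31-fold higher in LKO (log2 0.39, SE 0.13, adjusted p = 0.0199, 0.17 to 0.70 within slides). That call ended without fasted LWT replicate 1, at 0.36 (adjusted p = 0.0514). The fasting difference was -0.19 in LWT (95% interval -0.47 to 0.08) and 0.03 in LKO (-0.23 to 0.28). With both probes averaged the LWT value was -0.53 and passed (adjusted p = 0.0287). The dim second probe, A_52_P158800, was well above background in 1 of 5 fed and 0 of 5 fasted LWT mice, so no fold is given for it, although its fitted difference passed (adjusted p = 0.0308 over 28115 probes). The repeat arrays of fasted LWT replicate 1 differed by 2.73 at that probe.

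Fgfr3, a receptor better known from cartilage but present in liver RNA here, fell with fasting in both genotypes. At A_55_P1996578 (mm9 chromosome 5, 34079649 to 34079708, plus strand) it read 2.13, 2.67, 2.27, 2.35 and 2.48 in fed LWT and 1.08, 1.07, 1.04, 1.29 and 1.05 in fasted LWT mice. In LKO mice it ran from 1.99 through 2.72 to 3.06 when fed and from 1.22 through 1.5 to 1.77 when fasted. Every fasted mouse was below every fed mouse, whatever its genotype.

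The fall of Fgfr3 was 2.42-fold in LWT (log2 -1.28, SE 0.15, adjusted p = 1.31e-06, -1.32 to -1.21 within slides). In LKO it was 2.23-fold (log2 -1.16, SE 0.14, adjusted p = 9.29e-07, -1.44 to -0.68 within slides). The 2 responses differed by 0.12 (95% interval -0.32 to 0.55, adjusted p = 0.756), and by -0.01 without fed LKO replicate 3. LKO against LWT was 0.26 in fed mice (adjusted p = 0.409) and 0.38 in fasted mice (SE 0.15, adjusted p = 0.0477). The latter call ended in 15 of 32 alternatives, at values of 0.32 to 0.38. They included leaving out fed LWT replicate 3, 4 or 5, fasted LWT replicate 1, 2, 3 or 5, fed LKO replicate 4 or 5, and any fasted LKO mouse except replicates 1 and 5.

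Another Fgfr3 probe also fell with fasting and lies in a separate stretch of the transcript. It is shown with 1 Fgfr4 probe, because in both genes the fitted response differed in size between probes.

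Fgfr3 probe A_65_P06147: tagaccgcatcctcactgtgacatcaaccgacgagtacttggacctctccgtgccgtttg
Fgfr4 probe A_52_P144363: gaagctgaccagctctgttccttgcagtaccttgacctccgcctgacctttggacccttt

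The Fgfr3 probe has 60 bases that the array files place over 34077856 to 34078090, a longer stretch of genome than the probe itself. There the fall was -0.79 in LWT (SE 0.14, adjusted p = 0.000128 over 28115 probes) and -0.64 in LKO (SE 0.13, adjusted p = 0.000321). Fed and fasted mice did not overlap in either genotype at this probe either, with fed values of -2.87 to -1.91 and fasted values of -3.56 to -2.91 over both genotypes. The remaining probe, A_55_P2150422, was well above background in none of the 22 mice.

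**Figure D3:**
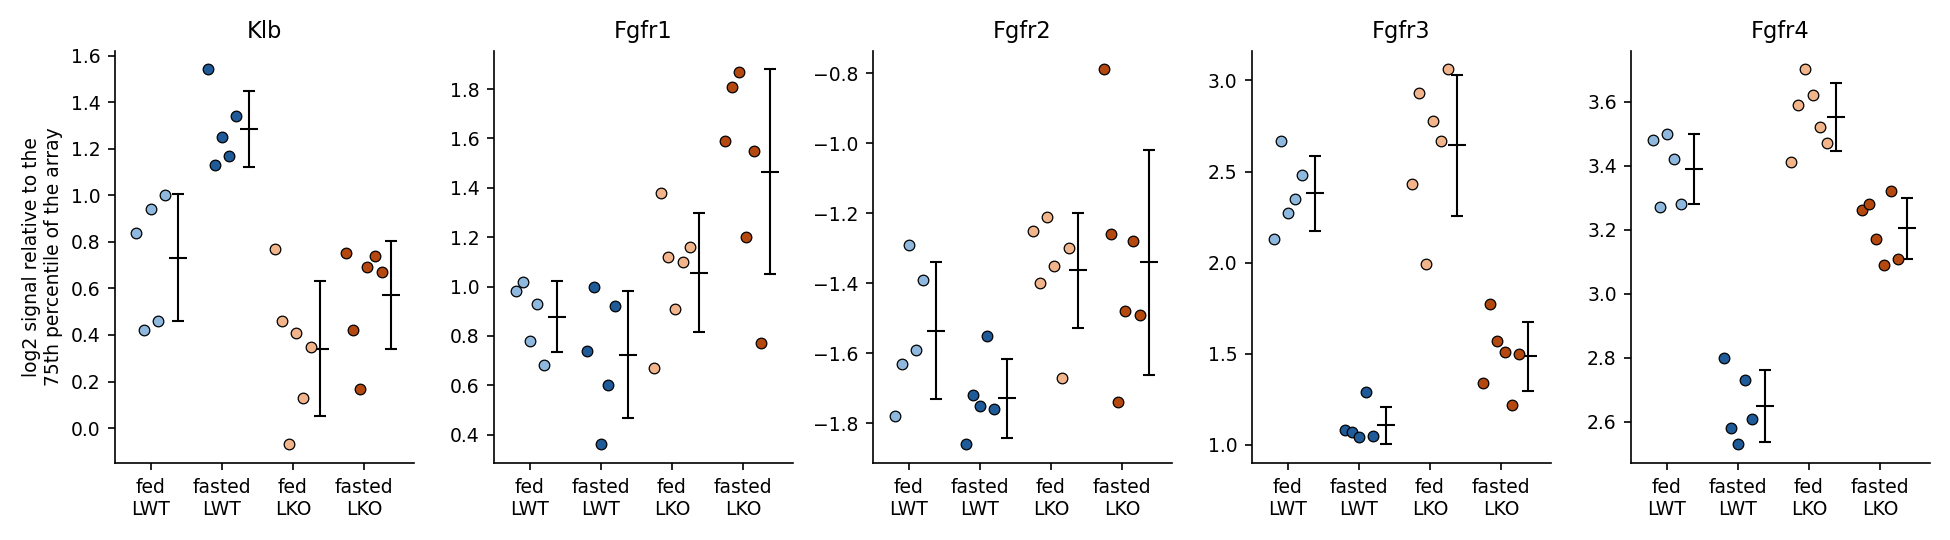
Level of Klb and of the 4 FGF receptors in each mouse by group, at the probe that stands for the gene, as log2 signal relative to the 75th percentile of the array. Each panel has its own vertical scale, bars give the mean and SD, and all points were well above background; in the Fgfr3 panel every fasted mouse lies below every fed mouse.

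Fgfr4, the main hepatocyte FGF receptor, also fell with fasting, and it fell less in LKO mice. At A_55_P2120055 (mm9 chromosome 13, 55270033 to 55270092, plus strand) it read 3.48, 3.27, 3.50, 3.42 and 3.28 in fed LWT and 2.80, 2.58, 2.53, 2.73 and 2.61 in fasted LWT mice. In LKO mice it ran from 3.41 through 3.55 to 3.7 when fed and from 3.09 through 3.21 to 3.32 when fasted. Fasted LKO mice lay between fasted LWT mice and fed LKO mice with no overlap on either side.

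The fall was 1.67-fold in LWT (log2 -0.74, SE 0.07, adjusted p = 6.07e-08) and 1.27-fold in LKO (log2 -0.35, SE 0.06, adjusted p = 0.000124). The responses differed by 0.39 (SE 0.09, adjusted p = 0.00646), and Fgfr4 was the 1 member of 6 in which this difference passed, against 18.5% of all genes. Within the 3 slides it was 0.33 to 0.48. Fasted LKO mice had 1.47-fold more Fgfr4 than fasted LWT mice (log2 0.55, SE 0.07, adjusted p = 1.77e-06), whereas fed mice differed by 0.16 (95% interval 0.02 to 0.30, adjusted p = 0.235).

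A neighbouring Fgfr4 probe that shares 4 genome positions with the first, A_51_P408100, gave falls of -0.70 and -0.36 and a difference of responses of 0.34 (adjusted p = 0.0156 over 28115 probes). The third probe, A_52_P144363, is annotated to a splice variant of Fgfr4 and lies at 55269360 to 55269419. There the level fell by 0.43 in LWT (adjusted p = 0.00129) and by 0.31 in LKO (adjusted p = 0.00618), with overlap of fed and fasted LKO mice, and the responses differed by 0.12 (95% interval -0.16 to 0.39, adjusted p = 0.614). Averaging all 3 probes put the difference at 0.28 and ended its call (adjusted p = 0.0547). Whether the probes themselves differ was not tested.

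**Figure D4:**
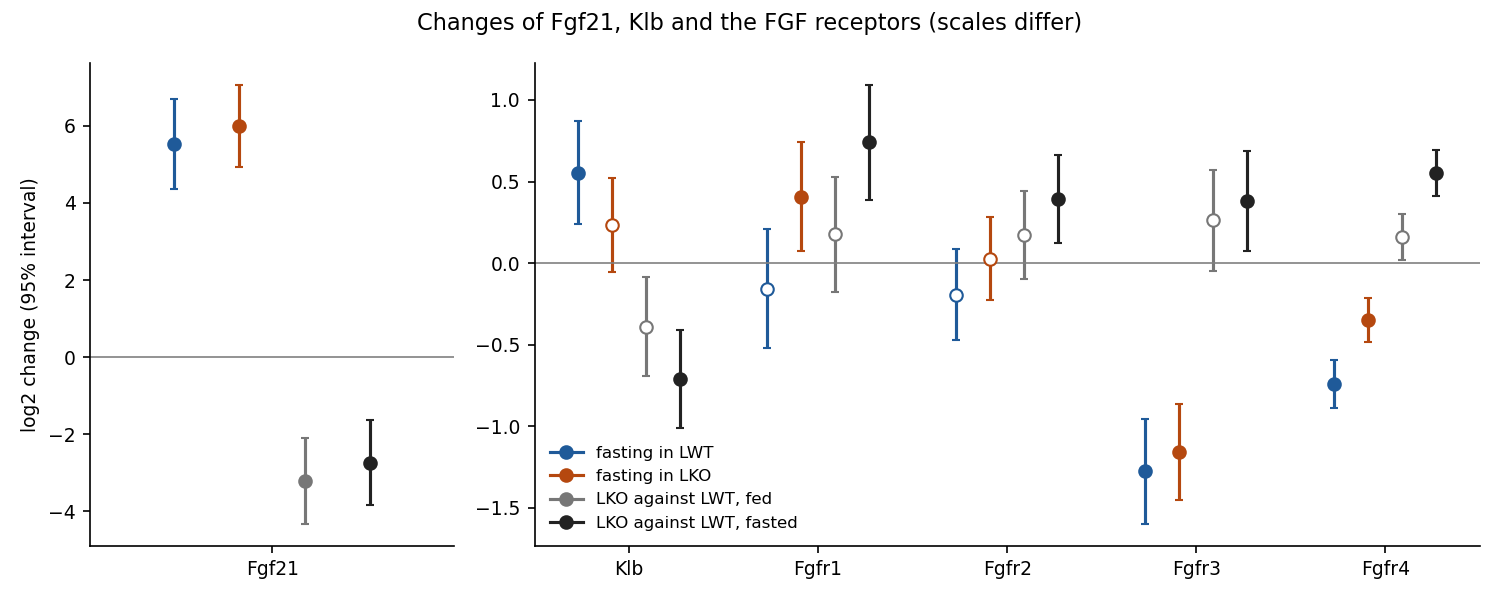
Log2 change of the 6 genes in the 4 comparisons with 95% intervals from limma, with Fgf21 on a scale of its own. Filled points have an adjusted p below 0.05; Fgfr3 and Fgfr4 fall with fasting in both genotypes, and all 5 receptor genes differ between the fasted genotypes, Klb downwards and the others upwards.

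Counted over the 6 genes, fasting in LWT raised 2 and lowered 2, where 44.4% of all genes were called, 22.6% higher and 21.8% lower. Fasting in LKO raised 2 and lowered 2, where 49.8% were called, 22.9% higher and 26.9% lower. Between fed genotypes 1 of 6 was lower in LKO and none higher, where 3.96% were called, 1.97% higher and 1.99% lower. Between fasted genotypes 4 were higher and 2 lower in LKO, where 37.9% were called, 17.9% higher and 20% lower. The difference of responses was positive and called for 1, where 7.71% were called higher and 10.8% lower. Over all 28115 probes the called shares were 41.2%, 46.5%, 3.81%, 36.6% and 16% in the same order. Groups did not overlap for 4 genes with fasting in LWT, 3 with fasting in LKO, 1 between fed genotypes and 3 between fasted genotypes, against 34.4%, 27.3%, 3.67% and 25.3% of all genes. The median change of the 6 was -0.18, 0.13, 0.17 and 0.39 in these comparisons, against medians of 0.00, -0.04, 0.02 and -0.01 over all genes.

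The genes whose level followed Fgf21 most closely over the 22 mice were Cidec, Cyp4a31, Cyp4a10, Slc25a34 and Msmp. The measure was the root mean square difference of the centred log2 levels, 1.37 to 1.75 against an SD of 3.36 for Fgf21 itself. Cidec, which encodes a lipid droplet protein, and the Cyp4a genes, which encode fatty acid omega-hydroxylases, rose by 5.32, 4.93 and 5.71 in LWT and by 4.25, 4.09 and 4.28 in LKO. LKO against LWT was -3.53 in fed and -4.96 in fasted mice for Cyp4a10, and -0.67 (adjusted p = 0.232) and -1.74 for Cidec. Msmp differed in pattern: it rose by 3.82 in LWT and 5.06 in LKO, and LKO against LWT was -0.67 (adjusted p = 0.566) in fed and 0.58 (adjusted p = 0.392) in fasted mice. Among the 5 nearest genes to Klb were Cbr1, Stard5, Amhr2 and Pex3, a peroxisome assembly factor (0.20 to 0.21, SD of Klb 0.41). Among the 5 nearest to Fgfr1 were P2rx4, Gtf2h1, Cdcp1 and Heatr1 (0.22 to 0.235, SD 0.38).

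Fgfr3 was followed most closely by Bdh2, Cyb5r3, Selenbp1, Limd2 and Srd5a1 (0.21 to 0.23, SD 0.67). Bdh2 changed by -1.16 with fasting in LWT and -1.30 in LKO, and Selenbp1 by -1.26 and -1.15, close to the -1.28 and -1.16 of Fgfr3. Fgfr4 was followed by Erp44, Iqgap1, Zbtb20, Zdhhc18 and Sugp2 (0.13 to 0.15, SD 0.35). Fgfr2 had Ccdc82, Slc38a10, Ski, Tnfaip8 and Ptprk as its nearest (0.17 to 0.18), with its own SD at only 0.25.

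Regulators and targets of the factors that drive Fgf21 were then read from lists that do not hold it. These lists, too, were chosen with earlier results of these data known. Of 20 PPARalpha target genes, 19 rose with fasting in LWT mice with a median change of 2.20. In LKO mice 13 rose and 3 fell, with a median of 0.83. The response was smaller in LKO than in LWT for 19 of 20, of which 12 passed the test of the difference, against 10.8% of all genes. Between fasted genotypes 19 were lower in LKO, where 20% of all genes were lower. Between fed genotypes 9 were lower and 1 higher, where 1.99% of all genes were lower and 1.97% higher. Fgf21 thus shared the lower levels in LKO with this list, while its own difference of responses did not pass in the main values.

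Cyp4a14, a fatty acid omega-hydroxylase, was the most raised of these genes in LWT (log2 7.01, SE 0.64). Its fed LWT signal was well above background in 3 of 5 mice.

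Of 16 tested ATF4 target genes, 9 rose and 2 fell with fasting in LWT, with a median change of 0.65, and 8 rose and none fell in LKO, with a median of 0.59. Gdf15, a stress hormone, read -0.71 to 0.43 in fed LWT, 0.98 to 2.49 in fasted LWT, -0.03 to 0.97 in fed LKO and 4.80 to 5.58 in fasted LKO mice. It rose by 1.93 in LWT and by 4.85 in LKO (SE 0.25 and 0.23), and fasted mice overlapped fed mice in neither genotype. Atf3, a stress-induced transcription factor, rose by 0.92 and 4.38, and Trib3, a pseudokinase induced by ATF4, by 2.03 and 2.96. The responses differed by 2.92 for Gdf15 (adjusted p = 7.28e-06) and 3.45 for Atf3 (adjusted p = 2.89e-06). For Trib3 the difference of 0.93 did not pass (adjusted p = 0.0505).

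Not all genes of the ATF4 list rose with fasting. Mthfd2, a mitochondrial enzyme of folate metabolism, fell in LWT by 1.84 (SE 0.40), with 3 of 5 fasted mice well above background, and changed by 0.82 in LKO (adjusted p = 0.0714). Its difference of responses was nonetheless positive, as for Gdf15 and Atf3, at 2.66 (adjusted p = 0.00192). Between fasted genotypes 7 of the 16 were higher and 2 lower in LKO, where 17.9% of all genes were higher and 20% lower. The difference of responses was positive for 11, of which 4 passed, against 7.71% of all genes called positive. It was negative for 5, of which 1 passed, against 10.8% called negative. The latter gene was Vldlr, named after its values were seen, at -1.49 (adjusted p = 0.00993). Vldlr rose by 1.33 in LWT and changed by -0.16 in LKO (adjusted p = 0.633). Without fed LKO replicate 3 the counts that passed were 6 and 1, and the median of that difference went from 0.20 to 0.43. That mouse was the highest of the 6 fed LKO mice for 12 of the 16 genes, against 24.8% of all genes.

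**Figure D5:**
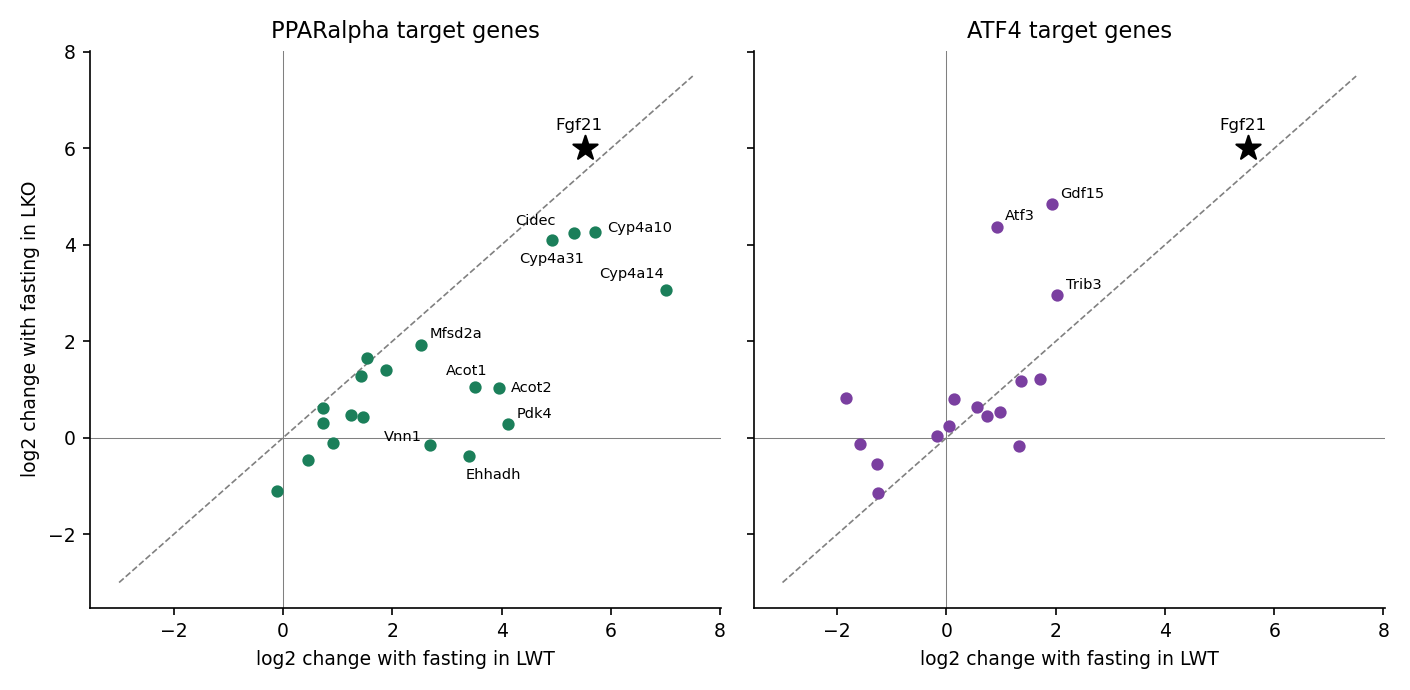
Log2 change with fasting in LKO against that in LWT for 20 PPARalpha target genes and 16 ATF4 target genes, with Fgf21 as a star and the dashed line marking equal changes. Of the PPARalpha targets, 19 lie below the line. Of the ATF4 targets, 11 lie above it, Gdf15, Atf3 and Trib3 among them, and 5 below.

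Among 20 regulators of Fgf21 transcription, 7 rose and 5 fell with fasting in LWT, and 8 rose and 6 fell in LKO. Over all genes 22.6% rose and 21.8% fell in LWT and 22.9% and 26.9% in LKO, so the falls are near those shares and the rises somewhat above them. The same shares are the background for the fasting counts of every list. Ppargc1a, a coactivator of PPARalpha, rose by 1.74 and 1.23. Mlxipl, which encodes the carbohydrate sensor ChREBP, fell by 1.41 in each genotype (SE 0.11 and 0.10). Ern1, a sensor of endoplasmic reticulum stress, fell by 1.02 in LWT and 0.65 in LKO.

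Ddit3, a stress transcription factor, fell by 0.66 in LWT (adjusted p = 0.0122) and rose by 1.28 in LKO (adjusted p = 9.5e-06), with a difference of 1.95 (adjusted p = 8.13e-05). Atf4 itself, named after its values were seen, changed by -0.09 in LWT (adjusted p = 0.458) and rose by 0.35 in LKO (adjusted p = 0.00101), with a difference of 0.44 (adjusted p = 0.014).

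The other FGF ligands were mostly dim, with 9 of 21 tested. Fgf23, the bone hormone of phosphate balance, fell by 0.99 in LWT and 1.05 in LKO (SE 0.11 and 0.10). Its probe, A_55_P2169514, read 1.91 to 2.39 in fed LWT mice, and whether it reads only Fgf23 was not tested. Fgf11, an intracellular FGF that does not bind the receptors, fell by 0.70 and 0.91. Fgf1, which can bind all FGF receptors, rose by 0.49 in LWT (SE 0.11) and changed by -0.23 in LKO (adjusted p = 0.0777). Of the other 6 in LWT and 7 in LKO, none was called, Fgf8 among them (-0.47 in LKO, adjusted p = 0.204).

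Among 6 tested co-receptor relatives, decoys and FGF-binding proteins, 1 rose and 1 fell in LWT, and 1 rose and 2 fell in LKO. Flrt1, a membrane protein that binds FGF receptors, fell by 0.47 and 0.49. Fgfbp3, a carrier of FGFs, rose by 0.63 in LWT and changed by 0.05 in LKO (adjusted p = 0.841). Flrt2 also passed as lower in fasted LKO mice (adjusted p = 0.0017), but it was well above background in 2 of 6 fed and 0 of 6 fasted LKO mice, so no size is given. Fap, the protease that inactivates human FGF21, rose by 0.46 in LKO (adjusted p = 0.00859) and changed by -0.24 in LWT (adjusted p = 0.207).

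Heparan sulfate is a cofactor of many FGFs, although endocrine FGFs bind it weakly. Of its 18 tested synthesis and core protein genes, 5 rose and 8 fell in LWT and 3 rose and 7 fell in LKO. Gpc1, a glypican, rose by 1.01 and 1.14, and Hs3st1, a sulfotransferase, by 1.03 and 0.65. Sdc4, a syndecan, rose by 0.34 and 0.78. Gpc3, another glypican, was dim and changed by -0.90 in LWT without passing (SE 0.65, adjusted p = 0.279).

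Downstream of the receptors, 22 adaptor and ERK cascade genes were near balance, with 5 higher and 6 lower in LWT and 6 higher and 4 lower in LKO. Hras fell by 0.48 and 0.58, and Plcg2 by 0.44 and 0.61. Crk rose by 0.59 in LWT and changed by 0.14 in LKO (adjusted p = 0.355), and Braf rose by 0.25 and 0.44.

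Of 16 tested genes that FGF and other receptors induce through ERK, with their feedback inhibitors, 4 rose and none fell with fasting in LWT, where 22.6% of all genes rose and 21.8% fell. In LKO 10 rose and none fell, where 22.9% of all genes rose and 26.9% fell. The LWT count of risen genes is near the share over all genes. Egr1, an immediate early gene, rose by 2.58 in LWT and by 4.28 in LKO (SE 0.45 and 0.42), and Fos by 1.11 and 3.46 (SE 0.30 and 0.27). The Fos responses differed by 2.35 (adjusted p = 0.000469). Spry1, a feedback inhibitor of receptor tyrosine kinases, rose by 0.77 in LWT and 0.71 in LKO. Dusp4, an ERK phosphatase, rose by 2.33 in LKO and changed by 0.60 in LWT (adjusted p = 0.113), with a difference of 1.73 (adjusted p = 0.00532). Over the 16 genes the difference of responses was positive for 12, of which 4 passed, against 7.71% of all genes called positive. It was negative for 4, of which none passed. The genes of this list answer to many receptors, and which one moved them was not tested.

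Liver genes known to respond to FGF15 or FGF21 did not move as 1 group, with 5 of 11 higher and 1 lower in LWT and 6 higher and 1 lower in LKO. Cyp7a1, whose enzyme starts and limits the making of bile acids and which FGF15 represses through FGFR4, fell 12.4-fold in fasted LKO mice (log2 -3.63, SE 0.40). Its level ran from 2.56 to 3.75 in fed LKO and from -1.47 to 0.52 in fasted LKO mice, against 0.93 to 3.73 in fasted LWT mice. Cyp8b1, the sterol 12-alpha-hydroxylase, rose by 2.49 in LWT and 1.25 in LKO (SE 0.28 and 0.25). Igfbp1, an IGF-binding protein that FGF21 and fasting induce, rose by 1.92 and 3.18, and Igfbp2 by 1.34 and 1.40.

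Among 17 tested endocrine factors of the fasted or stressed liver, 4 rose and 4 fell in LWT and 6 rose and 3 fell in LKO. Beside Gdf15 and Igfbp1, Angptl4, an inhibitor of lipoprotein lipase and a PPARalpha target, rose by 1.43 and 1.27.

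Markers of other liver cells moved with some of these comparisons, and their part in the results was not tested. All 12 endothelial markers were lower in fasted LKO than in fasted LWT mice, where 20% of all genes were lower. Their summed level was 40.5 to 49.6 in fasted LKO and 57.7 to 81.5 in fasted LWT mice. With fasting, 7 of the 12 rose and none fell in LWT, and 1 rose and 5 fell in LKO. Of 9 tested cholangiocyte markers 2 fell with fasting in LWT and 1 fell in LKO. Between fasted genotypes 2 were higher in LKO, where 17.9% of all genes were higher. The summed cholangiocyte level ran from 6.86 to 11.8 in fed LWT and 4.10 to 7.38 in fasted LWT mice. In LKO mice it ran from 6.69 to 8.88 when fed and 3.98 to 8.24 when fasted.

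Of 12 stellate and fibroblast markers, 4 rose and 5 fell in LWT, and 2 rose and 7 fell in LKO. Their summed level ran from 58.7 to 73.0 in fed LWT, 72.4 to 89.1 in fasted LWT, 63.2 to 78.2 in fed LKO and 66.3 to 84.4 in fasted LKO mice. Hepatocyte markers summed to 4440 to 5010 in fed LWT, 4790 to 5160 in fasted LWT, 4450 to 5040 in fed LKO and 4850 to 5090 in fasted LKO mice. The summed level of 9 pancreas markers ran from 31.6 to 36.8 in fed LWT and 16.2 to 18.3 in fasted LWT mice. In LKO mice it ran from 20.1 to 41.8 when fed and 16 to 17.3 when fasted. Of the 4 tested, 1 rose and 1 fell in LWT and 1 rose and 2 fell in LKO, and Cpa1 and Ins2 were never well above background. The summed level of 7 adipocyte markers ran from 2.71 to 3.45 in fed LWT and 3.85 to 5.29 in fasted LWT mice. In LKO mice that sum ran from 2.17 to 2.75 when fed and 2.27 to 3.06 when fasted. Of the 6 adipocyte markers tested, 2 were lower in LKO when fed and 3 when fasted, against 1.99% and 20% of all genes.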

How the data were processed

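The authors' scanner output gives an intensity for each spot, which Feature Extraction 10.10.1.1 had corrected for background and spatial trend, with a surrogate in place of spots not above background, per the file headers. The authors also deposited log2 values of 31356 probes, made with limma per the submitters' processing notes; the function used is not given in the sources used here. The column medians of that table are 8.16 to 8.17, and repeat arrays of a mouse carry 1 averaged value in it.

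Here control spots and outlier-flagged spots were left out, repeat spots averaged, and log2 processed signals set relative to the 75th percentile of the array. That percentile was taken over all non-control spots, flagged ones included. Repeat arrays were averaged per mouse. A probe was tested if it had a symbol, a value in every mouse and a signal well above background in at least 5 of 22 mice, and a gene took its probe with the highest mean. These 28115 probes gave 17206 genes, fitted with limma 3.58.1 (R 4.3.3), 1 mean per group, after tests on simulated data. Other probes of a member were adjusted over all 28115 probes.

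Named beside the members were up to 3 genes of each list with the largest change in each fasting comparison and the 5 genes most like each member. A few genes that this rule or a marker list names are not reported here. The members and lists were chosen with earlier results of these data known. All 6 members were found in RefSeq by symbol, and 5 had a listed promoter. Where nothing in the labels says otherwise, animal numbers were taken as separate mice, and their number limits the precision of every value. Alternatives covered background correction, normalization, the deposited table, filters, probe choice, slide, replicate number, the groups in the fit and each mouse left out.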

Additional observations from a re-analysis of the deposited data

Results flagged for a closer look

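Fed LWT replicate 5 had an Fgf21 level of -0.90, while the other 4 fed LWT mice lay between -4.03 and -3.46. This gap was 0.82 of the range of the group. Over all 17206 genes that mouse was the highest of the 5 fed LWT mice for 22.5% and the lowest for 24.7%. Of the 16 ATF4 target genes it was the highest for 9 and the lowest for 3, with Trib3 at 0.68 against -0.43 to 0.20 and Atf3 at -2.65 against -3.71 to -3.0. Of the 20 PPARalpha target genes it was the highest for none and the lowest for 3, with Cyp4a14 at -6.13 against -5.55 to -2.38. Cyp4a14 was well above background in 3 of 5 fed LWT mice. Both -6.13 and -5.55 lie under the dimmest well-measured signal of any array (-5.42), so the order of those values carries little weight. Mthfd2 of the ATF4 list was also highest in this mouse, at -2.12 against -3.15 to -2.38. Other named genes of these lists did not stand apart. Gdf15 of the ATF4 list, at -0.38, lay within -0.71 to 0.43. Of the PPARalpha list, Cidec (-0.23, within -0.96 to 0.24), Cyp4a10 (1.07, within 1.06 to 4.07) and Cyp4a31 (2.53, within 2.3 to 5.47) did not either. The mouse was looked at because of its Fgf21 level, so these shares and levels are a description with no test.

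Fasted LWT replicate 4 had an Fgfr3 level of 1.29 at A_55_P1996578, against 1.04 to 1.08 in the other 4. Fed LKO replicate 3 had an Fgfr4 level of -0.60 at A_52_P144363, against -1.18 to -1.0 in the other 5. That mouse was the highest of the 6 fed LKO mice for 12 of the 16 ATF4 target genes and the lowest for 1, against 24.8% and 32.9% of all genes, and it was the only fed LKO mouse with Fgf21 well above background. In all, 48 groups of a probe were examined for a sample far from the others and 3 had one, where chance gives about 1 in 20.

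The fasting response of Fgfr4 differed between genotypes by 0.39 (SE 0.09, adjusted p = 0.00646 in limma), with falls of -0.74 in LWT and -0.35 in LKO.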

How the results depend on the processing

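Over 32 alternatives, 18 of the 30 results on the 6 genes (6 genes in 5 comparisons) kept their direction and their side of the threshold. Of 960 recomputed values, 918 did so, 30 lost a call, 2 gained one and 10 changed sign, and all 160 counts of called genes stayed within 1.5 times. Under normexp the Fgf21 values were -0.92 for LKO against LWT when fed and -1.63 for the difference of responses. In the deposited table that difference was -1.21, and Fgfr2 changed by -0.0069 with fasting in LKO. With dim signals raised to the floor (chosen after seeing the data) the Fgf21 difference was -1.12.

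Without a filter on dim probes Fgfr1 in fasted LKO (0.41, adjusted p = 0.0683) and Fgfr3 between fasted genotypes (0.38, adjusted p = 0.0827) were not called. Averaging probes gave 0.0724 for Fgfr1 and -0.53 for Fgfr2 (now called, adjusted p = 0.0287) with fasting in LWT, 0.37 and -0.0895 in LKO, 0.56 for Fgfr1 between fasted genotypes and 0.28 for the Fgfr4 difference of responses. Slide as a block (adjusted p = 0.0516) and a fit to the compared groups alone (adjusted p = 0.0675) also ended the call of Fgfr1 with fasting in LKO, at 0.41. The cause was not tested.

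With the replicate number as a block, Fgfr3 between fasted genotypes was 0.34 (adjusted p = 0.0521), and no other call of the 6 genes changed. Same-numbered mice of different groups correlated with a mean r of 0.0095 over 31 pairs (-0.18 to 0.18), so the numbers were not taken as pairs.

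Leaving out single mice gave 0.33 to 0.55 for Fgfr1 with fasting in LKO, -0.0837 to 0.11 for Fgfr2 with fasting in LKO, 0.28 to 0.47 for Fgfr2 and 0.32 to 0.43 for Fgfr3 between fasted genotypes. For the difference of responses it gave -0.10 to 0.83 for Fgf21, 0.47 to 0.70 for Fgfr1 and -0.0136 to 0.20 for Fgfr3. At the members' other probes, 53 of 55 values under normexp and the deposited table kept direction and side, and under normexp A_65_P11598 of Fgfr1 changed by -0.0254 with fasting in LWT and A_52_P158800 of Fgfr2 by -0.0064 between fed genotypes. The floor over arrays, planned for lower bounds, was not run, since no bound is given. Signal over background limits Fgf21 in fed LKO mice and the dim probes.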
